A study of Mus musculus with 4 samples.

Results

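Interleukin-15 and the receptor chains that work with the common gamma chain were followed in mouse bone marrow-derived dendritic cells. The genes were chosen by symbol: the cytokine Il15, its private receptor chain Il15ra, and the chains Il2ra, Il2rg, Il4ra, Il7r and Il21r. Of these 7 genes, 6 were measured, out of 19938 genes with a name in all. Il2rg, the common gamma chain itself, had no probe set with a single gene symbol in the annotation used and was not analysed here.

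The cells were grown out of whole bone marrow with 20 ng/mL GM-CSF, the cytokine used to turn myeloid precursors into dendritic cells in culture, in the presence of 10% serum. On day 10 an siRNA was introduced by nucleofection, a form of electroporation. LPS, a lipid of the bacterial outer membrane that activates TLR4, was added 24 hours later at 100 ng/mL, and the cells were harvested after another 24 hours. There were 4 groups with 1 Affymetrix Mouse Gene 1.0 ST array each: si-NR4A3 with LPS, si-NR4A3 unstimulated, si-Ctrl with LPS and si-Ctrl unstimulated. NR4A3 is a transcription factor of the nuclear receptor class with no known natural ligand. The protocol text names BALB/c mice while the sample characteristics name C57BL/6, so the strain is unsettled for all groups.

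Interleukin-15 is a cytokine that keeps natural killer cells and memory CD8 T cells alive. Dendritic cells make it and show it on their surface bound to the interleukin-15 receptor alpha chain, from which it is handed to the beta and gamma chains on a neighbouring lymphocyte. The common gamma chain is shared by the receptors for interleukins 2, 4, 7, 9, 15 and 21, and pairs with a private chain for each of them, signalling through JAK1 and JAK3 to STAT factors. Il2ra (CD25) is the high-affinity chain for interleukin-2 and a known marker of activated dendritic cells. Il4ra binds interleukin-4, and Il7r is the alpha chain of the receptors for interleukin-7 and for TSLP. Il21r binds interleukin-21.

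The measured genes lie on 4 chromosomes, and 4 of them form 2 adjacent pairs. In the RefSeq gene order of GRCm38.p6, Il2ra and Il15ra are consecutive protein-coding genes on chromosome 2, as are Il4ra and Il21r on chromosome 7. Il7r is on chromosome 15 and Il15 on chromosome 8. RefSeq promoter windows were found for 5 of the 6 measured genes, all but Il15. The 250 bases before the annotated start, taken from RefSeq on GRCm38.p6 and written 5′ to 3′ along the gene, are printed for both adjacent pairs, because Il2ra and Il15ra had the widest LPS differences of the set and because the Il21r window held the NR4A motif and Il4ra is its neighbour. Il15ra has 2 annotated windows, of which the one farther upstream is shown. Capitals mark matches to 4 motifs searched on both strands: the NR4A response element NBRE (AAAGGTCA), the STAT element GAS (TTCNNNGAA), an interferon regulatory factor motif (AANNGAAA) and the NF-kB consensus.
Il2ra (chr2:11642542-11642791, plus strand): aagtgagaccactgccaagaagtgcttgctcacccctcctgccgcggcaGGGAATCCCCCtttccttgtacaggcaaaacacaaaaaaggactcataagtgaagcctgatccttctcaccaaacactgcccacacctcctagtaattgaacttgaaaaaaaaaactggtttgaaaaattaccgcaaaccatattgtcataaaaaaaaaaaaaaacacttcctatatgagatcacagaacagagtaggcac
Il15ra (chr2:11705043-11705292, plus strand): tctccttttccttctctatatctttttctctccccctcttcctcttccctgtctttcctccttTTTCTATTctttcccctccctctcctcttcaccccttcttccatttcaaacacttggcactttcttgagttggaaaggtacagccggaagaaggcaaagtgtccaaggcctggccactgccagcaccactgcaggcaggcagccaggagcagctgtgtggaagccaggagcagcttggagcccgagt
Il21r (chr7:125603179-125603428, plus strand): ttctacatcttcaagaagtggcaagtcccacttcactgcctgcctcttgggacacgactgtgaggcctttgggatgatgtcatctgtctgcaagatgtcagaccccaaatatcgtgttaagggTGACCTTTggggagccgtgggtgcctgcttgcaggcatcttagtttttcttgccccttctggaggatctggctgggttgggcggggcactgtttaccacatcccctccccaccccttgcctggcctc
Il4ra (chr7:125552021-125552270, plus strand): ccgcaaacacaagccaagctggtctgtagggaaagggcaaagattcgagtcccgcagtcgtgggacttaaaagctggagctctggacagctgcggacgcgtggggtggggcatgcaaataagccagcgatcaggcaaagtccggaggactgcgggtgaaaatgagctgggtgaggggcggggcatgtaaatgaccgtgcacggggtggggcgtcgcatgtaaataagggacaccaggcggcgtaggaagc

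In the Il2ra window the capitals mark 3 overlapping NF-kB matches, counting both strands, from 201 to 191 bases before the start. The NF-kB consensus was present in 7.25% of all 32851 promoter windows of the same length. In the Il15ra window they mark the interferon regulatory factor motif on the opposite strand, from 187 to 180 bases before the start, which 21.3% of all windows held. In the Il21r window they mark the NBRE read on the opposite strand, from 127 to 120 bases before the start, a motif held by 1.34% of all windows. The Il7r window, which is not printed, had 1 GAS match from 142 to 134 bases before the start, a motif in 7.02% of all windows. None of the 4 motifs was found in the Il4ra window or in the second Il15ra window, and no match overlapped one of another motif. A match describes letters in these windows and is not a measured binding site.

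The arrays gave log2 expression values, and 1 array per group leaves a difference between a pair of arrays without a replicate check or a p-value. A gene was counted as higher or lower when a pair differed by at least 1.5-fold and its brighter array reached 6.66, the median of all named genes. All 6 measured members passed this filter in every comparison. The average effect of each factor over all 4 arrays was tested with an additive model in limma, with p-values adjusted over 10592 genes by the Benjamini-Hochberg method, and "rose" and "fell" are used only for genes that passed it. The targeted gene Nr4a3 stood at 9.39 with si-NR4A3, against 11.77 with si-Ctrl, in LPS-treated cells, and at 7.15 against 11.21 in unstimulated cells. Of 10 dendritic cell markers, 9 reached the filter on at least 1 array, with Flt3 as the exception, and so did all 10 macrophage markers. Of the 19938 named genes, 10592 did.

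**Figure D1:**
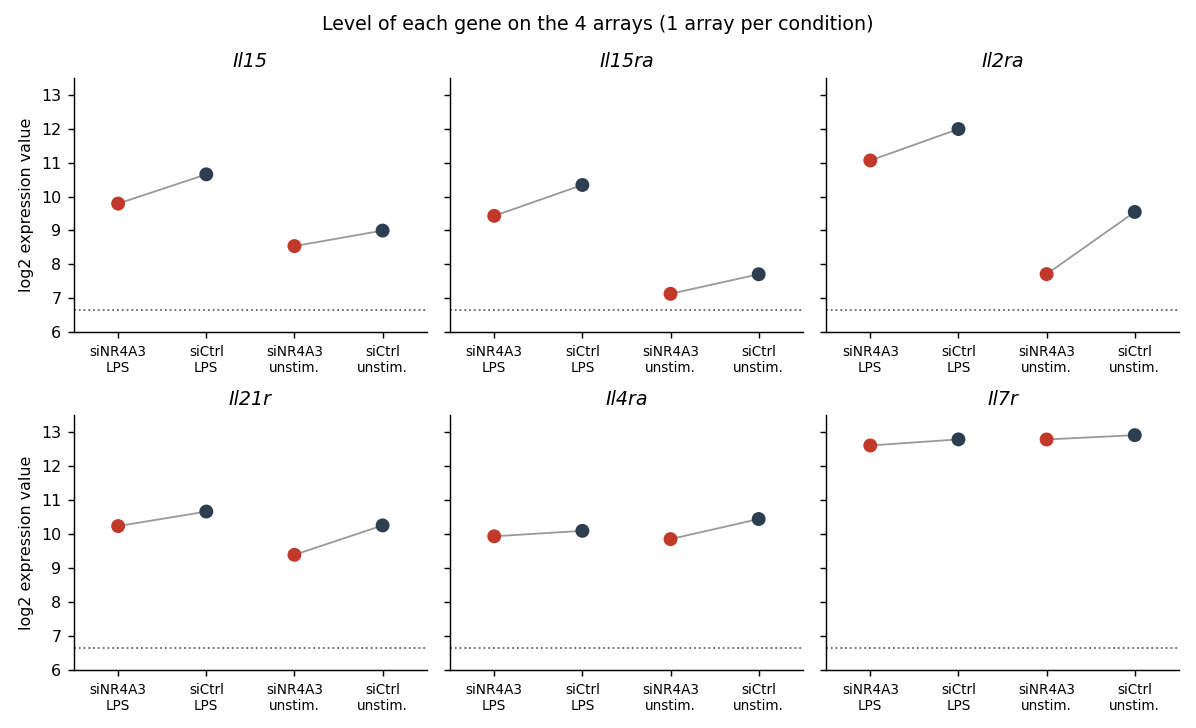
Log2 expression value (y axis) of the 6 measured genes on the 4 arrays (x axis), with si-NR4A3 in red, si-Ctrl in dark blue, a grey line between the siRNAs of 1 state, and a dotted line at the filter of 6.66. Il15, Il15ra, Il2ra and Il21r stand higher with LPS under either siRNA, every gene stands lower with si-NR4A3 in both states, and Il7r stays between 12.61 and 12.92.

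The response to LPS divided the 6 genes. Il15, Il15ra, Il2ra and Il21r rose with LPS in the additive model, while Il4ra and Il7r did not pass the test. Il15 stood at 9.79 with LPS, against 8.54 in unstimulated cells, under si-NR4A3, and at 10.65 against 9.0 under si-Ctrl. The LPS level was 2.38-fold higher under si-NR4A3 and 3.15-fold higher under si-Ctrl. The average LPS effect on Il15 was 1.45 ± 0.13 (log2, SE; adjusted p = 0.00082), or 2.74-fold.

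Il15ra, the private receptor chain of the cytokine, also stood higher with LPS. Il15ra stood at 9.43 with LPS, against 7.14 in unstimulated cells, under si-NR4A3, and at 10.34 against 7.71 under si-Ctrl. LPS-treated cells held 4.91-fold and 6.18-fold more Il15ra signal under si-NR4A3 and si-Ctrl. The average effect was 2.46 ± 0.12 (log2, SE; adjusted p = 0.00012).

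Il2ra had the widest LPS difference of the set under si-NR4A3. It stood at 11.06 with LPS, against 7.72 in unstimulated cells, under si-NR4A3, and at 11.99 against 9.55 under si-Ctrl. The LPS level was 10.2-fold higher under si-NR4A3, which ranked 48th from the highest of 10353 genes, and 5.43-fold higher under si-Ctrl, which ranked 105th of 10346. The average effect was 2.89 ± 0.21 (log2, SE; adjusted p = 0.00047). For Il15, Il15ra and Il2ra both LPS arrays were above both unstimulated arrays. The share of all genes with that order was not counted, so how unusual it is cannot be judged.

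Il21r rose less. It stood at 10.24 with LPS, against 9.39 in unstimulated cells, under si-NR4A3, and at 10.67 against 10.26 under si-Ctrl. The LPS array with si-NR4A3 lay just below the unstimulated array with si-Ctrl, so the 2 states overlapped across siRNAs, although LPS was higher under each siRNA, by 1.80-fold with si-NR4A3 and 1.33-fold with si-Ctrl. Its average effect was 0.63 ± 0.13 (log2, SE; adjusted p = 0.018).

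Il4ra and Il7r did not pass the test for LPS. Il4ra stood at 9.94 with LPS, against 9.86 in unstimulated cells, under si-NR4A3, and at 10.10 against 10.45 under si-Ctrl. Its LPS difference was 0.08 under si-NR4A3, a sign that turned to -0.01 under quantile normalization repeated over the named genes, and -0.35 under si-Ctrl. Il7r stood at 12.61 with LPS, against 12.79 in unstimulated cells, under si-NR4A3, and at 12.79 against 12.92 under si-Ctrl. The 95% interval of the average LPS effect ran from -0.46 to 0.19 for Il4ra and from -0.39 to 0.09 for Il7r (log2), with adjusted p of 0.50 and 0.30. The Il7r values lie towards the top of the range of the arrays, whose highest value was 14.27.

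In counts, 4 of the 6 members were at least 1.5-fold higher with LPS under si-NR4A3, where 10.3% of all genes were, and 3 of the 6 under si-Ctrl, where 10.2% were. None was at least 1.5-fold lower with LPS under either siRNA, where 6.88% and 9.44% of all genes were. The median LPS difference of the members was 1.05 under si-NR4A3 and 1.03 under si-Ctrl (log2), beside 0.02 and -0.02 over all genes past the filter. In the additive model, 4 of the 6 rose with LPS, against 15.6% of all genes, and 0 fell, against 14.4%.

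**Figure D2:**
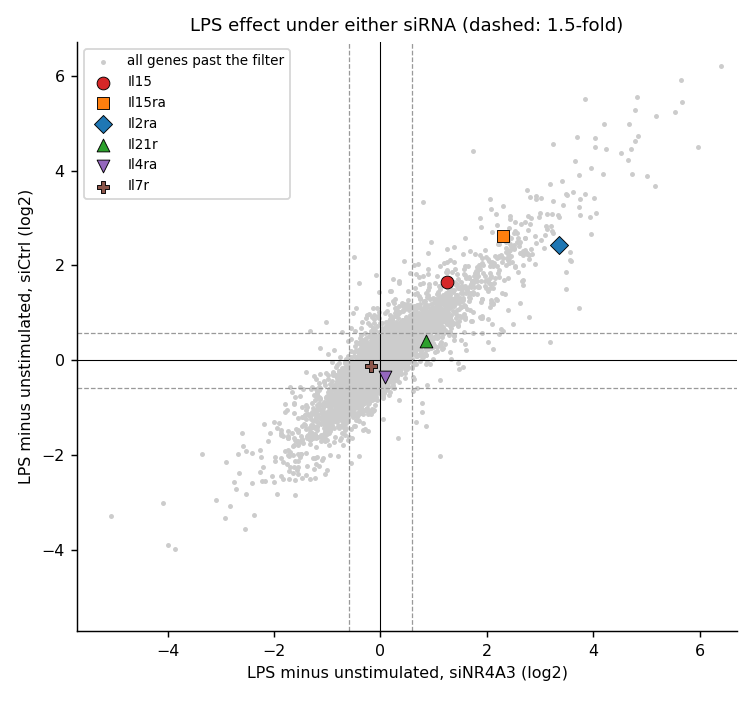
LPS minus unstimulated log2 difference under si-NR4A3 (x axis) and under si-Ctrl (y axis) for 10592 genes in grey and the 6 measured members as coloured symbols, with dashed lines at 1.5-fold. The axes share no array. Il2ra and Il15ra lie farthest towards the upper right, at 3.35 and 2.44 and at 2.30 and 2.63, and Il4ra and Il7r lie near the origin.

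Silencing of NR4A3 went with lower values of every measured member in both states, although the sizes differed widely. Il15, Il15ra and Il2ra fell with si-NR4A3 in the additive model, and Il21r, Il4ra and Il7r did not pass the test. All 3 calls were lost with cyclic loess scaling, where adjusted p was 0.077 for Il15, 0.057 for Il15ra and 0.056 for Il2ra, and without a filter on dim genes, where the values were 0.097, 0.072 and 0.081. The calls therefore lie close to the threshold.

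Il2ra had the largest silencing difference of the set without LPS. In unstimulated cells its level of 7.72 with si-NR4A3, against 9.55 with si-Ctrl, was 3.56-fold lower and ranked 49th from the lowest of 10257 genes. In LPS-treated cells the levels of 11.06 with si-NR4A3 and 11.99 with si-Ctrl gave a 1.90-fold lower value with si-NR4A3. The average effect of silencing was -1.38 ± 0.21 (log2, SE; adjusted p = 0.028), with a 95% interval from -1.90 to -0.85. The call was also lost with an intensity trend and robust variances, at an adjusted p of 0.080.

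For Il15 and Il15ra the difference was larger with LPS than without it. Il15 was 1.82-fold lower with si-NR4A3 in LPS-treated cells and 1.37-fold lower in unstimulated cells. Il15ra was 1.88-fold lower with LPS and 1.49-fold lower without, just short of 1.5-fold. The average effects were -0.66 ± 0.13 for Il15 (log2, SE; adjusted p = 0.046) and -0.74 ± 0.12 for Il15ra (adjusted p = 0.031). The Il15 call was lost as well with median centring, at an adjusted p of 0.058, and with repeated quantile normalization, at 0.072. Whether these differences depended on LPS was not tested, since 1 array per group leaves no error term for it.

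For Il21r and Il4ra the difference was larger without LPS. Il21r was 1.35-fold lower with si-NR4A3 in LPS-treated cells and 1.82-fold lower in unstimulated cells. Its average of -0.65 ± 0.13 (log2, SE) had an adjusted p of 0.053, and between 0.038 and 0.11 under 7 alternatives, 3 of which put it below 0.05. Il4ra was 1.12-fold lower with LPS and 1.51-fold lower without, with an average of -0.38 ± 0.13 (log2, SE; adjusted p = 0.15). Il7r, high on all 4 arrays, differed by -0.18 with LPS and -0.13 without, and the 95% interval of its average effect ran from -0.39 to 0.08 (log2; adjusted p = 0.36).

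In counts, 3 of the 6 members were at least 1.5-fold lower with si-NR4A3 in LPS-treated cells (Il15, Il15ra and Il2ra), where 4.73% of all genes were. In unstimulated cells 3 of the 6 were (Il2ra, Il4ra and Il21r), where 4.69% of all genes were. None was at least 1.5-fold higher in either state, where 3.73% and 1.62% of all genes were. Il2ra alone was lower by at least 1.5-fold in both states, as were 2.44% of all genes, and all 6 were lower by any amount in both, as were 29.6%. The median difference of the members was -0.64 with LPS and -0.58 without (log2), beside 0.05 and 0.02 over all genes past the filter. In the additive model 3 of the 6 fell, against 3.58% of all genes, and 0 rose, against 1.98%. Over all genes, 64.3% of the calls of this term were lower, and between 58.3% (intensity trend and robust variances) and 84.6% (no filter) under the alternatives, with 80.2% under cyclic loess.

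**Figure D3:**
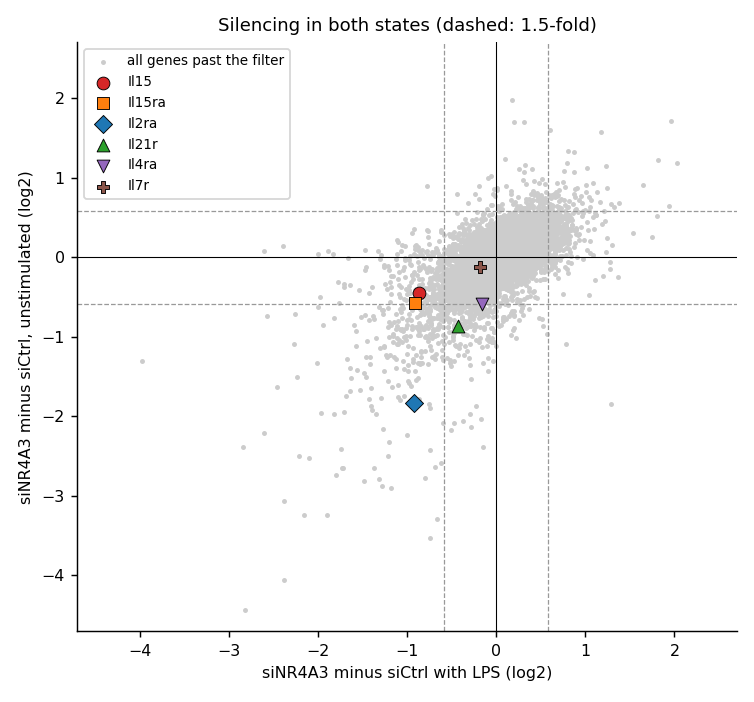
Si-NR4A3 minus si-Ctrl log2 difference with LPS (x axis) and without LPS (y axis) for 10592 genes in grey and the 6 measured members as coloured symbols, with dashed lines at 1.5-fold. The axes share no array. All 6 members lie in the lower left quadrant, and Il2ra, at -0.92 and -1.83, is the only one past the dashed line on both axes.

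The difference of the LPS effects, si-NR4A3 minus si-Ctrl, had either sign within the set. It was 0.91 for Il2ra (log2), which ranked 97th from the highest of 10592 genes, 0.44 for Il21r and 0.43 for Il4ra. It was -0.40 for Il15, -0.33 for Il15ra and -0.05 for Il7r. Il2ra thus had the wider LPS difference with si-NR4A3, and Il15 and Il15ra the wider one with si-Ctrl. These values rest on 4 single arrays and have no test.

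The genes that flank the 2 adjacent pairs passed neither test. Il2ra and Il15ra both rose with LPS, and the protein-coding genes on either side of the pair, Rbm17 and Fbh1, differed by 0.17 and 0.08 with LPS under si-NR4A3 and by 0.02 and 0.22 under si-Ctrl. Of the other pair, Il21r rose with LPS and Il4ra did not pass the test. Their outer neighbours Nsmce1 and Gtf3c1 differed by -0.19 and 0.18 with LPS under si-NR4A3 and by -0.25 and -0.01 under si-Ctrl. With si-NR4A3, Gtf3c1, next to Il21r, differed by -0.18 in LPS-treated and by -0.37 in unstimulated cells, the direction of Il21r and Il4ra, and its average effect had an adjusted p of 0.17. Of the neighbours of Il15 on either side, Inpp4b, a phosphoinositide phosphatase gene, stood at 7.16 with LPS, against 5.76 in unstimulated cells, under si-NR4A3, and at 7.40 against 5.76 under si-Ctrl, and rose in the model (adjusted p = 0.00043). Its unstimulated levels lay below the filter, so the sizes are approximate. Zfp330, on the other side of Il15, differed by 0.12 with LPS under si-NR4A3 and by -0.12 under si-Ctrl (adjusted p = 0.99). With si-NR4A3 in LPS-treated cells, where Il15 was lower, Zfp330 differed by 0.33 and Inpp4b by -0.24. Neither passed the test of the siRNA term in the model (adjusted p = 0.28 and 0.51). Beside Il7r, Capsl lay below the filter on all 4 arrays and Spef2 on 3 of them, and Spef2 passed neither test. The neighbours were chosen by gene order after the members' values were seen.

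Each member was also set beside the genes whose 4 centred values were nearest to its own by Euclidean distance among 10189 genes. For Il15 these were Uba7, which encodes the activating enzyme of the interferon-induced modifier ISG15 (distance 0.10), Dnajc1 (0.15) and Insl6 (0.22). For Il15ra they were Slamf1 (0.16), a receptor of the SLAM family, Olr1 (0.25), the oxidised LDL receptor, and Ms4a4a (0.27). For Il2ra the interferon-induced antiviral GTPase Mx1 (0.30) was nearest, followed by Lad1 (0.48) and Heatr9 (0.59), all at larger distances than for the other members. The gene nearest to Il21r was Cyria (0.06), and another cytokine receptor chain, Il13ra1, came next (0.11) before Dpp4 (0.11). Ppil1, Pold1 and Rab27a, at 0.05 to 0.07, were nearest to Il4ra, and Nsmce4a, Tmprss6 and Tbp, at 0.02 to 0.03, to Il7r. With 4 arrays such likeness is a description only.

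The other cytokines of the family were dim. Il2, Il4, Il7, Il9 and Il21 lay below the filter on all 4 arrays, between 4.51 and 6.24, so Il15 was the 1 of 6 cytokines on the list that reached it. Of the receptor chains outside the chosen set, Il2rb, the beta chain that Il15 signals through, lay between 5.51 and 5.66, Il9r between 6.24 and 6.40 and the decoy chain Il13ra2 between 4.48 and 4.52. Il13ra1, which pairs with Il4ra in the type II interleukin-4 receptor, stood at 10.37 with si-NR4A3, against 10.86 with si-Ctrl, in LPS-treated cells, and at 9.45 against 10.44 in unstimulated cells. It fell with si-NR4A3 (-0.74, log2; adjusted p = 0.045) and rose with LPS (0.67; adjusted p = 0.018). The si-NR4A3 call lies close to the threshold and was not read under the alternatives. Crlf2, which pairs with Il7r in the TSLP receptor, stood at 9.34 with si-NR4A3, against 9.19 with si-Ctrl, in LPS-treated cells, and at 9.70 against 9.39 in unstimulated cells, and passed neither test. Of 10 measured chains on the list, 3 were too dim for the model. The 7 tested were the members Il15ra, Il2ra, Il4ra, Il7r and Il21r, already counted above, with Il13ra1 and Crlf2. Of these 7, 3 fell with si-NR4A3, against 3.58% of all genes, and 0 rose, against 1.98%. With LPS 4 of the 7 rose, against 15.6% of all genes, and 0 fell, against 14.4%. In both counts Il13ra1 was the only gene outside the members, so they largely repeat those of the members.

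Downstream of these receptors, 11 of 13 listed JAK, STAT and feedback genes were measured. All 11 were tested, and with LPS 6 rose and 0 fell, where 15.6% and 14.4% of all genes did. Socs1, an inhibitor of JAK kinases, rose by 2.44 (log2; adjusted p = 7.4e-05), the related inhibitor Socs3 by 2.43 (adjusted p = 7.1e-05) and Stat5a, a transducer for interleukins 2, 7 and 15, by 1.14 (adjusted p = 0.00086). With si-NR4A3, Stat3, a transducer for interleukin-21 among others, fell by 0.86 (log2; adjusted p = 0.015), the feedback gene Socs2 fell by 0.93 (adjusted p = 0.013) and 0 of the 11 rose, where 3.58% of all genes fell and 1.98% rose. Stat6, the transducer for interleukin-4, lay between 11.19 and 11.43 on all 4 arrays. The median difference of the list was -0.15 and -0.02 with si-NR4A3 with and without LPS, beside 0.05 and 0.02 over all genes.

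**Figure D4:**
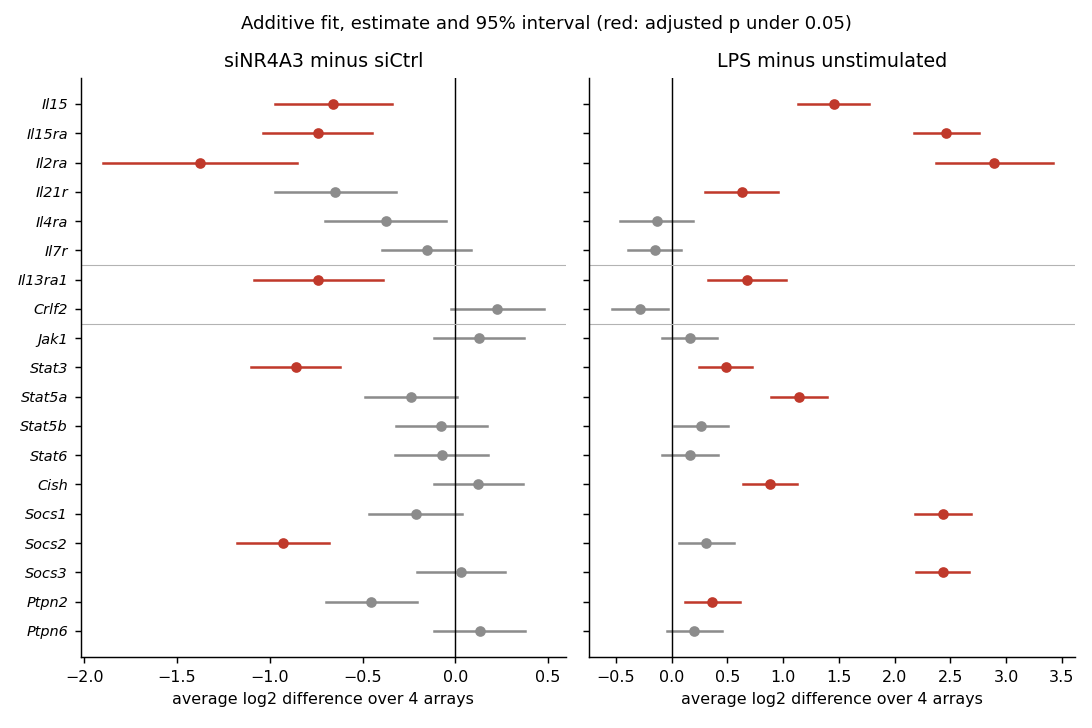
Average log2 difference and 95% interval from the additive model for the 6 measured members, 2 further receptor chains and 11 JAK, STAT and feedback genes (rows), for si-NR4A3 minus si-Ctrl (left) and LPS minus unstimulated (right); red marks an adjusted p under 0.05. Il2ra has the lowest estimate on the left (-1.38) and the highest on the right (2.89).

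Of 9 measured genes listed as known to act upstream of Il15, 8 were tested, and Ifnb1 was too dim. Of the 8, 3 rose and 0 fell with LPS, where 15.6% and 14.4% of all genes did, and 0 passed the test with si-NR4A3, where 1.98% of all genes rose and 3.58% fell. Irf1, a transcription factor known to act on the Il15 gene, rose by 1.12 with LPS (log2; adjusted p = 0.0011), Irf7 by 2.55 (adjusted p = 0.00026) and the interferon receptor chain Ifnar2 by 0.53 (adjusted p = 0.011). Irf1 stood at 10.14 with si-NR4A3, against 10.40 with si-Ctrl, in LPS-treated cells, and at 9.14 against 9.17 in unstimulated cells. Irf7 was 1.51-fold lower with si-NR4A3 in unstimulated cells and differed by 0.004 (log2) in LPS-treated cells. Its average siRNA effect in the additive model had an adjusted p of 0.29. Myd88, the TLR adaptor, averaged 0.31 higher with LPS and did not pass the test (adjusted p = 0.077).

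Known targets of interleukin-4 and STAT6 in mouse myeloid cells went both ways. Of 12 measured, 11 were tested, and Fcer2a was too dim. With LPS 6 of the 11 fell and 4 rose, where 14.4% and 15.6% of all genes did. With si-NR4A3, 3 rose and 1 fell, where 1.98% and 3.58% of all genes did. The mannose receptor Mrc1 fell by 3.92 with LPS (log2; adjusted p = 2.3e-05), Retnla fell by 2.38 (adjusted p = 0.00012) and the arginase gene Arg1 fell by 1.76 (adjusted p = 0.00046). With si-NR4A3, Mrc1, Retnla and Mgl2 rose by 0.63, 0.98 and 0.83 (adjusted p = 0.030, 0.016 and 0.016). Ccl24 fell by 0.95 (adjusted p = 0.017). The Ccl24 level with si-NR4A3 and LPS, 6.57, lay below the filter, so its size is approximate. Il4ra itself averaged -0.38 (adjusted p = 0.15). Of 10 targets of STAT5, all tested, 5 rose and 1 fell with LPS, where 15.6% and 14.4% of all genes did. With si-NR4A3, 0 rose and 1, Socs2, fell, where 1.98% and 3.58% of all genes did. The lists share genes, so some calls are counted on more than 1 list. Cish is on the feedback, STAT6 and STAT5 lists, and Socs1 on the feedback and STAT6 lists. Socs2 is on the feedback and STAT5 lists, and Mrc1 on the STAT6 and macrophage lists. The cyclin gene Ccnd2 rose by 2.70 with LPS (log2; adjusted p = 0.00017) and Cish, a feedback inhibitor, by 0.88 (adjusted p = 0.0019), and Bcl2, a survival gene, fell by 0.83 (adjusted p = 0.0048).

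Il2ra, Il7r and Il21r are also genes of lymphocytes, so markers of other cells were read beside them. Of 8 measured T cell markers 7, and of 7 measured B cell markers all 7, lay below the filter on all 4 arrays, including Cd3d, Cd3e, Cd3g, Cd79a and Ms4a1. Of 8 natural killer markers 7 were below it, including Ncr1 and Eomes. Over all named genes, 10592 of 19938 reached the filter on at least 1 array. The mean log2 level of the T cell list lay between 5.81 and 5.86 on the 4 arrays, that of the B cell list between 5.39 and 5.54 and that of the natural killer list between 5.17 and 5.50. The exceptions were Cd5 and Klrd1. Cd5 stood at 7.40 with si-NR4A3, against 6.68 with si-Ctrl, in LPS-treated cells, and at 6.12 against 6.16 in unstimulated cells. It rose with LPS in the additive model by 0.90 (log2, adjusted p = 0.016). The unstimulated levels of Cd5 lay below the filter, so that size is approximate. Klrd1 stood at 6.42 with si-NR4A3, against 8.24 with si-Ctrl, in LPS-treated cells, and at 5.10 against 7.07 in unstimulated cells, and fell with si-NR4A3 (-1.89, log2; adjusted p = 0.0045). Klrd1 also rose with LPS in the additive model, by 1.24 (log2, adjusted p = 0.00064). Its si-NR4A3 levels lay below the filter in both states, so the sizes are approximate.

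Markers of dendritic cells and macrophages also differed between the siRNAs. The mean level of the 10 dendritic cell markers was 10.64 with si-NR4A3, against 11.12 with si-Ctrl, in LPS-treated cells, and 9.56 against 10.74 in unstimulated cells. The markers were not shifted alike. In unstimulated cells Ccr7, the chemokine receptor of migrating dendritic cells, differed by -3.53, the actin-bundling gene Fscn1 by -3.29 and Cd83 by -2.65 (log2), while Itgax, Cd74 and H2-Ab1 differed by 0.04, 0.02 and -0.03. Cd86, Ciita and Zbtb46 lay between these in unstimulated cells, at -0.92, -0.44 and -0.27. In LPS-treated cells the differences were -0.74 for Ccr7, -0.66 for Fscn1, -1.73 for Cd83, -1.07 for Cd86, -0.64 for Zbtb46 and 0.20 for Itgax. Those of Ciita, Cd74 and H2-Ab1 were 0.004, -0.04 and -0.04. Of the 9 tested, Cd83 and Cd86, surface proteins of mature dendritic cells, fell with si-NR4A3 in the model and 0 rose. Over all genes, 3.58% fell and 1.98% rose. Ccr7 and Fscn1 did not pass (adjusted p = 0.095 and 0.098). The mean of the 10 macrophage markers was 10.67 with si-NR4A3, against 9.97 with si-Ctrl, in LPS-treated cells, and 11.10 against 10.64 in unstimulated cells. Of these 10, C1qa, C1qb, C1qc and Mrc1 rose with si-NR4A3 and 0 fell, where 1.98% and 3.58% of all genes did. The complement genes C1qa, C1qb and C1qc had the largest differences, 1.02, 2.03 and 1.82 with LPS and 1.12, 1.19 and 1.22 without (log2). Cd14, the LPS co-receptor, differed the other way, by -0.08 with LPS and -0.39 without, and Fcgr1 by -0.16 with LPS and 0.04 without. In such bulk samples fewer cells of a type and less RNA per cell cannot be told apart, and the part of either list in the lower Il15, Il15ra and Il2ra values was not tested.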

How the data were processed

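Total RNA of 4 groups with 1 array each was measured. The values are log2 levels that the authors obtained with RMA and quantile normalization before deposit, as the sample labels state. Affymetrix Expression Console 1.1 is the software listed in the submitters' processing notes. No source used here gives the genome build or any filter. Of 28856 probe sets, 21789 had 1 gene symbol in the platform annotation, 1621 had several and 5446 had none. The single-symbol ones gave 19938 genes, each taken at its brightest probe set, and each measured member had 1 probe set. Differences between 2 arrays are in log2 and have no test. The additive model (limma 3.58.1 in R 4.3.3; lmFit and eBayes with siRNA and LPS as terms) had 1 residual degree of freedom and a prior of 4.76 estimated over genes; its residual holds the difference of the LPS effects and array noise. Whether the groups were separate cultures is not said in the labels. These p-values therefore rest only on scatter among 4 arrays, which may be technical. More weight lies on the variance pooled over genes than on each gene's own residual. The number of arrays limits the precision. Simulated effects were used to check the code.

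The members and the gene lists (6 of pathways, 8 of cell types) were chosen with earlier results of these data known. All members were named, with Nr4a3, every gene of the cytokine and receptor chain lists, up to 4 genes of each other pathway list with the largest difference, and the 3 nearest patterns per member. Stat3, Stat6, Mgl2, Ccl24 and the cell type markers singled out were added after their values were seen. Alternatives were median centring, repeated quantile normalization, cyclic loess, the mean of probe sets, 2-fold and 3-fold thresholds, leaving out the filter or raising it to the 75th percentile (8.67), and an intensity trend with robust variances.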

Additional observations from a re-analysis of the deposited data

Results flagged for a closer look

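The LPS difference of Il4ra had opposite signs under the 2 siRNAs, 0.08 with si-NR4A3 and -0.35 with si-Ctrl (log2), so that the LPS effects differed by 0.43. With 1 array per group the difference was not tested, and neither value reached 1.5-fold. The opposite signs were lost under repeated quantile normalization, where the value with si-NR4A3 was -0.01 and that with si-Ctrl -0.43.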

How the results depend on the processing

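No paired analysis was possible because each group has 1 array and the labels give no replicate numbers. No array could be left out, since the additive model then has no residual degrees of freedom. At a 2-fold threshold 1 member was lower with si-NR4A3 in unstimulated cells (Il2ra, also the 1 at 3-fold) and 0 with LPS at either threshold. At 3-fold 2 members were higher with LPS under si-NR4A3. In the additive model 0 members fell with si-NR4A3 under cyclic loess or without a filter, against 3 in the main analysis, while all 4 LPS calls of members held under the 7 alternatives. Over all genes, 210 rose and 379 fell with si-NR4A3. The number that rose was 114 with median centring, 109 with repeated quantile normalization, 55 with cyclic loess, 322 with the mean of probe sets and 24 without a filter, and the number that fell was 223 with cyclic loess and 132 without a filter. The number that fell with LPS was 988 with the filter at the 75th percentile, where fewer genes were tested (5761), against 1524. Il15ra reached 1.5-fold in unstimulated cells with median centring (-0.59) and cyclic loess (-0.59). The differences of the LPS effects kept their sign in all 6 members under median centring, repeated quantile normalization and cyclic loess; the mean of probe sets cannot change a member, since each has 1 probe set. The authors' normalization forces a common distribution on the arrays and would hide a change shared by most genes. The cause of the lost calls was not tested.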

Other observations

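Markers of other cells that such cultures can hold gave a few values of their own. Over all named genes, 10592 of 19938 reached the filter on at least 1 array. Of 8 neutrophil markers, 7 lay below the filter on all 4 arrays. The exception was S100a8, at 7.83 to 8.49, which passed neither test. Of 8 mast cell and basophil markers, 5 lay below the filter, and Hdc, which encodes the enzyme that makes histamine, rose with LPS by 1.08 (log2; limma, adjusted p = 0.0039). The unstimulated levels of Hdc lay below the filter, so the size is approximate. Kit, the stem cell factor receptor, stood at 7.99 with si-NR4A3, against 7.21 with si-Ctrl, in LPS-treated cells, and at 5.88 against 6.97 in unstimulated cells, so the siRNA difference had opposite signs in the 2 states and was not tested there. The unstimulated si-NR4A3 level of Kit lay below the filter, so that size is approximate. Of 6 stromal markers, 5 reached the filter, and Dcn, the proteoglycan decorin, rose with LPS by 2.97 (adjusted p = 0.00014), whereas Col1a1 stayed between 7.12 and 7.26. These genes were singled out after their values were seen.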
